A study of Homo sapiens with 35 samples.

Results

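Chromosome 16 is a medium-sized human chromosome, and its contacts with the nuclear lamina were followed along 785 bins of 100 kb, out of 26584 bins measured over the genome (2.95%). The bins are all those of chromosome 16 (hg19) with a value in every cell, and they run from position 1 to 90300000. The longest stretch without values, 11 Mb at 35300001 to 46300000, was taken as the boundary between the arms, which leaves 345 bins on the short arm and 440 on the long arm.

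The cells were diploid KBM7 cells of clone 5-5, a single clone of a human chronic myeloid leukaemia line, and all of them carried lamin B1 fused to Dam, a bacterial adenine methylase. Shield1, a small molecule that stabilises the fusion protein, was given at 0.5 nM during the last 15 h, and single cells were taken from the smallest 2% of those expressing both Fucci reporters of the cell cycle. The labels list 35 cells of this 1 group, 32 of which have a column in the table and were used, and there were no cells with unfused Dam or of a second condition. Each value is a ratio of observed to expected reads (OE), and a bin with an OE of 1 or more was counted as in contact.

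The lamina is a protein meshwork beneath the nuclear envelope, and the chromatin lying against it is as a rule poor in genes, rich in A and T, little transcribed and replicated late. Such lamina-associated domains are long, and which of them touch the lamina differs from cell to cell. Lamin B1 is one of the filament proteins of this meshwork and stays close to the inner nuclear membrane. The OE of a bin does not separate the homologous copies of a chromosome, nor different times within the induction.

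Recovered reads ranged from 985 to 258225 per cell and those on chromosome 16 from 6 to 5406. Cells 13, 15 and 17 had fewer than 10000 reads each, a single read gave a median OE of 12.5 to 24.9 on chromosome 16, and they held 0.764 to 2.17% of its bins in contact. Values over the other 29 deeper cells are therefore given beside those over all 32 where they differ. Nothing in the labels says that the cells came from separate cultures, so tests over cells measure the spread between these cells.

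Chromosome 16 touched the lamina rarely, and where it did, the contacts were gathered in a few regions of the long arm. Its contact share, the percentage of its bins in contact within a cell, was 0.764% in the lowest cell, 10.2% in the median cell and 23.1% in the highest. The mean was 10.2% ± 5.50 on chromosome 16 and 26.8% ± 8.20 over all other bins (SD, n = 32). Cell by cell this made -16.6 percentage points ± 5.85 (SD), and chromosome 16 was lower in all 32 cells (two-sided permutation test by sign flips, adjusted p = 1.47e-05 over 22 chromosomes). Over the 29 deeper cells the shares were 11.1% ± 4.93 on chromosome 16 and 29.1% ± 4.02 elsewhere (SD), and the difference was -18.0 points. Ordered by mean share, chromosome 16 was 4th from the lowest of 22 chromosomes. The 22 include chromosome X and do not include every autosome.

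Chromosome 16 was compared with chromosomes 17, 18 and 20, which have 779, 751 and 600 used bins against its 785. Other chromosomes near it in length were left out. Within this set, chromosome 16 lay between the extremes. It exceeded chromosome 17 (6.21% ± 3.20) by 3.99 points ± 4.57 (SD) and was the higher in 26 of 32 cells (adjusted p = 9e-05 over 3 pairs, sign-flip permutation tests). It was below chromosome 20 (13.8% ± 6.74) by -3.59 points ± 6.10, with the lower value in 25 of 32 cells (adjusted p = 0.00256). It was below chromosome 18 (32.5% ± 12.8) in 32 of 32 cells, by -22.3 points ± 9.97 (adjusted p = 3e-05). In RefSeq's annotation of GRCh38.p14 chromosome 16 holds 854 protein-coding genes, chromosome 17 holds 1169, chromosome 18 holds 270 and chromosome 20 holds 537. That annotation is of another build than the bins, so genes were counted per chromosome and per arm and none was placed in a bin.

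**Figure D1:**
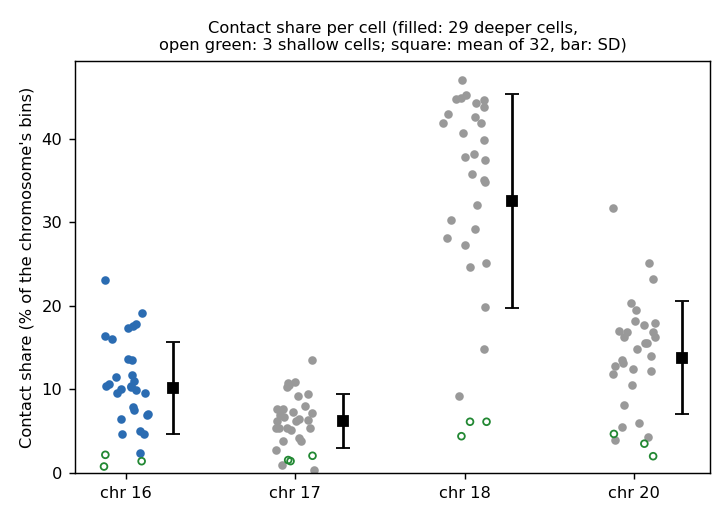
Contact share of chromosomes 16, 17, 18 and 20 in each cell, in percent of the bins of the chromosome; filled points are the 29 deeper cells, open points the 3 shallow ones, and squares with bars the mean and SD of all 32. Chromosome 16 averaged 10.2%, against 6.21% on chromosome 17, 32.5% on chromosome 18 and 13.8% on chromosome 20.

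Most of chromosome 16 was in contact in none of the cells. Of its 785 bins, 491 (62.5%) were in contact in 0 of 32 cells, against 41.4% of all other used bins. Among the 491 are 82 bins with no read in any cell, and 1204 of the 26584 used bins of the genome had none. By the limit of 3 counts, a count of 0 of 32 allows a contact frequency of up to 9.38%. The upper bound of the exact 95% interval is 10.9%. A contact frequency, the percentage of cells in which a bin is in contact, of at least 50% was found in 76 bins (9.68%), against 29.6% of all other bins. Only 3 bins reached 80% (0.382%, against 8.67% elsewhere), and over the deeper cells 18 bins did (2.29%, against 14.6%). No bin of chromosome 16 exceeded 81.2% of the cells, whereas bins elsewhere reached 100%.

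Tested bin by bin against the contact shares of the cells, 78 of the 785 bins (9.94%) were in contact more often than the 8.42 cells expected, against 30.3% of all 26584 bins tested. In contact less often were 609 bins (77.6%), against 54.5% of all bins. The test was an exact Poisson-binomial test with Benjamini-Hochberg adjustment over all bins, and the called bins were in contact in at least 15 and in at most 3 cells. The remaining 98 bins were not called. Of the 78 bins in contact more often, 75 lay on the long arm and 3 on the short arm.

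The arms differed in nearly every cell. On the long arm the contact share was 1.14% in the lowest cell, 16.6% in the median cell and 31.6% in the highest. On the short arm these values were 0%, 2.46% and 13.6%. The means were 15.7% ± 8.30 on the long arm and 3.18% ± 3.34 on the short arm (SD, n = 32), and the long arm was higher by 12.5 points ± 7.35 in 31 of 32 cells (p = 1e-05 in the sign-flip permutation test, the smallest that 100000 resamples can give). In the deeper cells the long arm had 17.1% ± 7.40 and the short arm 3.47% ± 3.37 (SD, n = 29). Of all contacts on chromosome 16, 13.7% fell on the short arm, which has 43.9% of the bins. By gene order in GRCh38.p14, 374 protein-coding genes lie on the long arm and 480 on the short arm.

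**Figure D2:**
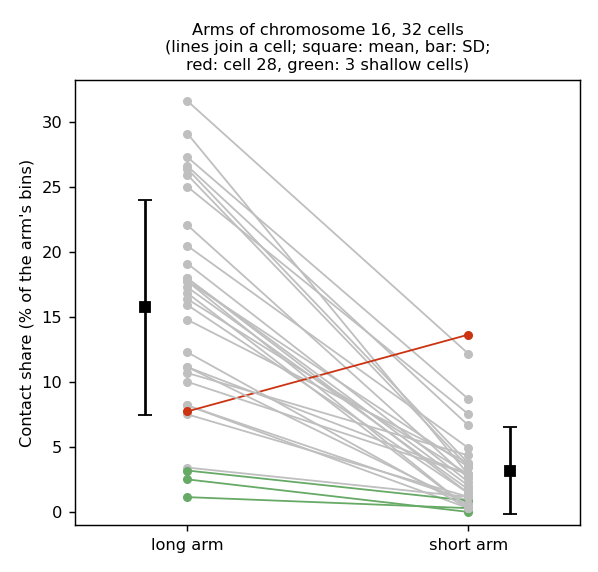
Contact share of the long and the short arm in each of the 32 cells, in percent of the bins of the arm, with a line joining the arms of a cell; squares and bars are means and SD. The long arm averaged 15.7% and the short arm 3.18%, and cell 28 is the cell with the opposite order, with 7.73% and 13.6%.

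The longest region of contacts lay on the long arm at 59100001 to 65500000, 6.4 Mb in 64 bins. Regions were formed by joining neighbouring bins in contact in 20% of the cells or more, across up to 0.5 Mb, and kept from 5 such bins upward, a rule chosen after the values were seen, so their frequencies are given without a test. The mean contact frequency of this region was 63.2%, and 68.6% in the deeper cells. Its mean OE was 0.480 in the lowest cell, 1.93 in the median cell and 4.02 in the highest, with a mean of 2.05 ± 0.936 (SD, n = 32). It held 50.5% of all contacts of chromosome 16 in 8.15% of the bins.

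Inside this region the contact frequency varied little between windows of 1 Mb up to 65100000, with means of 58.4 to 68.1%, and was lower in the last 4 bins, at 40.6%. The borders were set by the limit of 20%, so the values on either side are a description. On the left border the outermost 5 bins inside averaged 56.2% and the 5 bins outside 3.75%. On the right border these values were 43.1% and 5.00%. Near the left end, the bins at 60100001 to 60200000 (18.8%) and 60200001 to 60300000 (46.9%) separate 2 stretches with at least 50% in every bin, one of 0.8 Mb (59300001 to 60100000, mean frequency 68.4%) and one of 5 Mb (60300001 to 65300000, mean 65.9%). The highest bin of the region over all cells, at 63200001 to 63300000, was in contact in 26 of 32 (81.2%, exact 95% interval 63.6 to 92.8%). In the deeper cells this bin had 82.8%, below the bin at 63000001 to 63100000 with 86.2%.

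The second region with frequent contacts lay at 75800001 to 78900000, and its frequency declined from left to right. Its first 1.4 Mb (75800001 to 77200000) formed a stretch of 14 bins with at least 50% each, and that stretch had the highest mean frequency of any on the chromosome, 72.5%, or 79.6% in the deeper cells. Its mean OE was 2.20 over all cells. The left border was the steepest seen, with 70.0% in the outermost 5 bins inside and 3.75% in the 5 bins outside. The bins at 76300001 to 76500000 were each in contact in 26 of 32 cells, and in 89.7% of the deeper cells. The next window, 76800001 to 77800000, averaged 49.1% and the one after it, 77800001 to 78800000, only 15.3%, and a bin at 77200001 to 77300000 with 3.12% interrupted the decline. The region as a whole held 17.5% of the contacts in 3.95% of the bins.

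**Figure D3:**
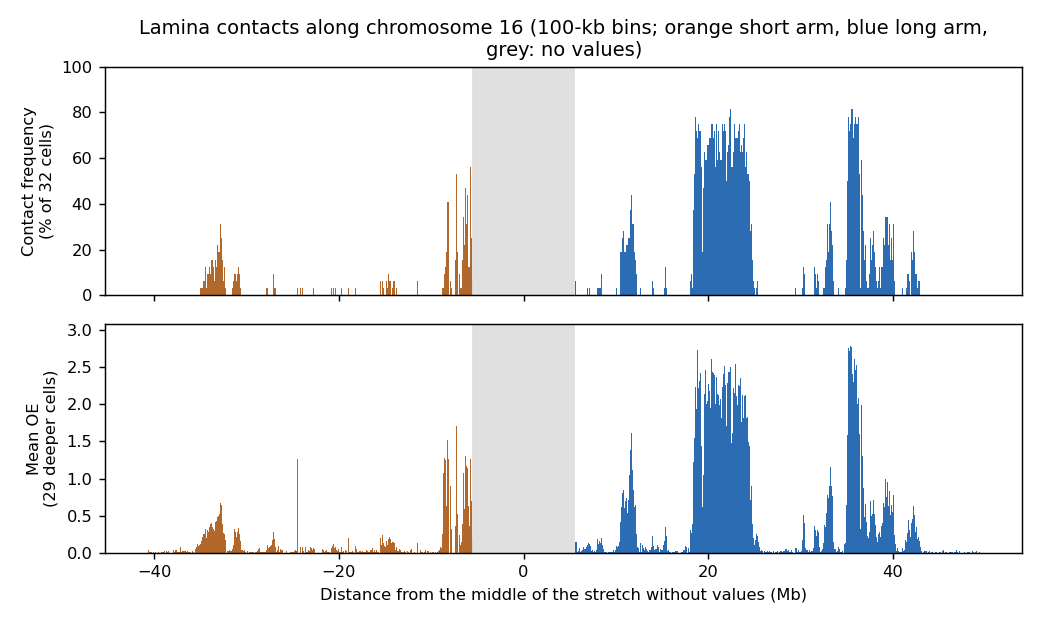
Contact frequency in 32 cells (top, percent) and mean OE in the 29 deeper cells (bottom) of each 100-kb bin, by distance in Mb from the middle of the stretch without values; negative distances are the short arm. Both tracks show 2 tall blocks on the long arm, which hold the 3 bins at 80% or more, and outside them 2 single short-arm bins pass 50%. Some isolated OE bars on the short arm are bins with a read in 1 cell, such as 16300001 to 16400000. The bin at 33500001 to 33600000, with a mean OE of 1.70 in the deeper cells, was in contact in 17 of 32 cells.

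The other 4 regions had contact frequencies near 30% or below. On the long arm, the region at 51500001 to 52800000 had a mean contact frequency of 26.7%, that at 73600001 to 74300000 had 29.0%, and that at 79700001 to 80900000 had 27.1%. On the short arm, next to the stretch without values, the region at 34200001 to 35200000 had 30.3%. Of its 10 bins, 6 fell in the lowest 10% of expected reads, against 0 bins in each long-arm region. The mean OE of the 4 regions was 0.736 to 0.910, against 2.05 in the longest region. The contacts in them were concentrated in some cells: in the deeper cells, 8 to 12 of 29 had no bin of a given one of these regions in contact, while the highest cell had 90.0 to 100% of the bins. The 6 regions together took up 17.5% of the bins and held 82.7% of the contacts.

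Names of neighbouring genes give a background to this map without placing genes in bins. By the order of protein-coding genes in GRCh38.p14, the 3 widest intervals without such a gene, leaving out the centromere, follow each other on the long arm. They lie between GOT2 and CDH8, between CDH8 and CDH11, and between CDH11 and CDH5. GOT2 encodes the mitochondrial aspartate aminotransferase, CDH8 and CDH11 encode type II cadherins, and CDH5 encodes the cadherin of endothelial junctions. The interval that is next in width, between MAF, a transcription factor gene, and DYNLRB2, a dynein light chain gene, is also on the long arm. The intervals ranked 5 to 7 in width lie on the short arm, between HS3ST4 and C16orf82, TP53TG3F and CCNYL1B, and XYLT1 and NPIPA8.

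Individual cells used the regions in different combinations. In the longest region the share of bins in contact was 15.6% in the lowest of the 29 deeper cells, 76.6% in the median cell and 98.4% in the highest. In 12 of these cells at least 80% of its bins were in contact, in 15 it was 20 to 80%, and in 2 it was under 20%. In the region at 75800001 to 78900000 the lowest, median and highest shares were 3.23%, 51.6% and 93.5%. At least 50% of the bins were in contact in both regions in 14 deeper cells, in the longest region alone in 8, in the other alone in 3, and in neither in 4. Cell 30 had 82.8% of the longest region and 3.23% of the other in contact, and cell 31 had 17.2% and 54.8%. Cell 24 combined high shares, with 96.9% and 93.5%, and cell 11 low ones, with 15.6% and 16.1%.

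**Figure D4:**
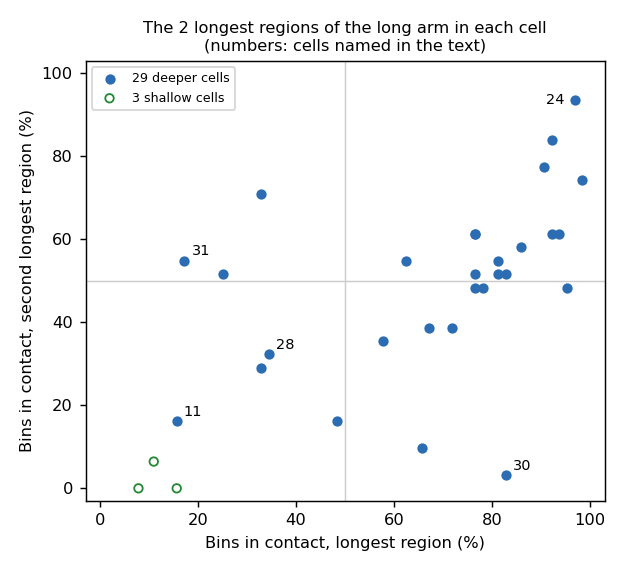
Share of bins in contact in the longest region (horizontal, percent) and in the region at 75800001 to 78900000 (vertical, percent) in each cell; grey lines mark 50%. Cells occupy all 4 fields, with 14 of the 29 deeper cells in the upper right.

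As a description over the 29 deeper cells, which share their library and depth between regions, the shares of these 2 regions had a Pearson's r of 0.439, or 0.367 after the share of the other chromosomes was subtracted from each. The closest pair was that of neighbours, 75800001 to 78900000 and 79700001 to 80900000, with an r of 0.751 (0.708 after subtraction). All 10 deeper cells with at least 50% of the second of these in contact also had at least 50% of the first. For the short-arm region at 34200001 to 35200000, r with the other regions ranged from 0.161 to 0.547. The lowest was with the longest region and the highest with the region at 51500001 to 52800000, across the centromere. No pair was tested.

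Among 123 bins of 20 to 80% contact frequency, contacts in the same cells went together most for close bins. After the share of the cell was subtracted, the mean correlation of bin pairs over 32 cells was 0.444 within 1 Mb, 0.256 at 1 to 5 Mb, 0.148 at 5 to 20 Mb and 0.106 beyond 20 Mb. On the other chromosomes, treated the same way, these values were 0.380, 0.221, 0.144 and 0.0932. The bins of a distance class overlap in pairs, and no test was made of the difference. The shares of the long and the short arm had a correlation of 0.439 over 32 cells and 0.142 over the 29 deeper ones after the same subtraction, which adds a shared term to both. Without subtraction these values were 0.470 and 0.398, and with regression on the share of the cell 0.215 and 0.155.

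**Figure D5:**
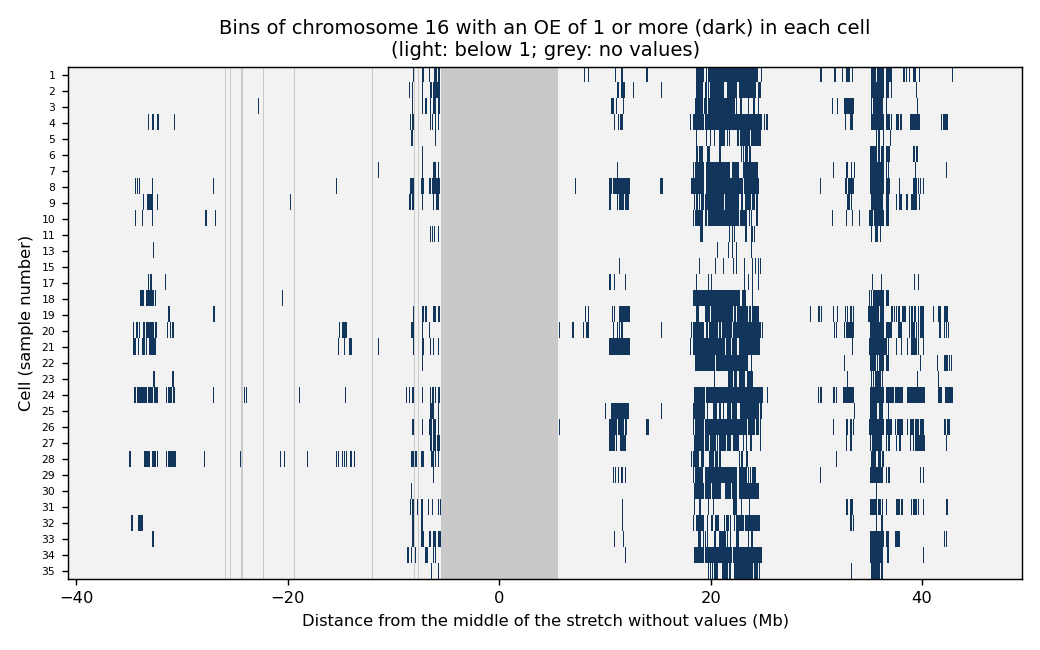
Each row is a cell, by its sample number, and each column a 100-kb bin of chromosome 16, by distance in Mb from the middle of the stretch without values; dark bins had an OE of 1 or more, and grey marks bins without values. In the longest region, 22 of 32 rows have at least 50% of the bins dark. In the region at 75800001 to 78900000, 17 of 32 rows do. The weaker regions and the short-arm segment at 5800001 to 10200000 hold dark bins in some rows and none in others.

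Within a cell, contacts of chromosome 16 formed runs of adjacent bins. The mean run was 135.7 kb in the lowest deeper cell, 375 kb in the median cell and 709 kb in the highest. The longest run of a deeper cell was 2.36 Mb ± 1.42 (SD, n = 29), with a range of 0.300 to 5.40 Mb. It lay in the longest region in 23 of the 29 cells, in the region at 75800001 to 78900000 in 5 and elsewhere in 1. The runs of 5.40 Mb were those of cells 4 and 24, at 60200001 to 65600000 and 60300001 to 65700000. Runs of at least 1 Mb were counted 62 times in 24 deeper cells, and 1 of the 62 lay on the short arm.

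The ends of chromosome 16 were free of contacts at an OE limit of 1. The last 5 Mb of the long arm had 0% of 49 bins in contact in all 32 cells, against 20.1% ± 10.5 in the rest of the arm (SD; -20.1 points, lower in 32 of 32 cells, sign-flip permutation test, adjusted p = 1.33e-05 over 4 regions). The first 5 Mb of the short arm, whose tip carries the alpha-globin genes, had 0% of 50 bins in contact in every cell, against 2.14% ± 3.75 in the rest of the arm (-2.14 points, lower in 17 cells and equal in 15, adjusted p = 4e-05). The size of this difference moved with the OE limit, to -0.443 points at a limit of 2, -4.85 points at 0.5 and -10.0 points with any read counted. No expectation could be recovered for 16 of the 49 long-arm and 14 of the 50 short-arm bins. A further 11 and 9 fell in the lowest 10% of expected reads. Without such bins the differences were -22.4 points at the long-arm end and -2.84 points at the short-arm end. The stretches without contact were longer than these windows, with 6.6 Mb at 83700001 to 90300000 and 5.8 Mb at 1 to 5800000. When the windows were widened to 10 Mb the short-arm difference turned to 3.46 points (sign-flip permutation test, adjusted p = 0.00013). The wider end window takes in contacts of the segment at 5800001 to 10200000. The rest of the arm also changed, as the window at the centromere was widened with it.

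The bins flanking the centromere stood above the rest of their arm on the short arm and below it on the long arm. On the short arm, 11.8% ± 9.92 of 48 bins within 5 Mb of the stretch without values were in contact, against 2.14% ± 3.75 in the rest of the arm (SD; 9.71 points, higher in 26 of 32 cells, adjusted p = 1.33e-05). On the long arm, 1.19% ± 2.43 of 50 flanking bins were in contact, against 20.1% ± 10.5 (-18.9 points, lower in 32 of 32 cells, adjusted p = 1.33e-05). The expected reads of the short-arm flank were low, with a median 0.540 times that of all bins, against 0.965 times on the long-arm flank. Of its 48 bins, 28 fell in the lowest 10% of expected reads, and no expectation could be recovered for 6. Without such bins the short-arm difference was 3.41 points (adjusted p = 0.0301). The difference between the flanks themselves was not tested.

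Within the short arm, most contacts lay in 2 segments. The 3.3 Mb next to the stretch without values, 32000001 to 35300000, held 51.9% of the contacts of the arm, and 26 of 32 cells had at least 1 bin in contact there. The bins at 33500001 to 33600000 and 35000001 to 35100000 reached 53.1% and 56.2% of the cells, with 66 and 158 reads over all cells. The segment at 5800001 to 10200000 held 36.8% of the contacts, with a mean contact frequency of 9.16% and a highest of 31.2%. It had 2941 reads over all cells, against 1407 in the segment next to the stretch without values. The 93 bins at 12900001 to 22700000 had a mean of 0.571%.

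The segment at 5800001 to 10200000 was in contact in 15 cells, over 1 to 26 of its bins. In 17 of 32 cells, and in 16 of the 29 deeper cells, none of its 44 bins was in contact. Shallow cells 17 and 13, with 1755 and 985 reads over the genome, had 3 bins and 1 bin in contact. Cell 24 had 26 bins in contact, cell 28 had 21 and cell 20 had 19, together 51.2% of its 129 contacts, and the next cell, cell 21, had 14. The first 3 of these are among the deeper cells of the table, with 258225, 210885 and 213718 reads. Thinned to 40279 reads, they had 14, 22 and 22 bins in contact, and cell 21 had 12.

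Cell 28 was the exception to the order of the arms. It had 7.73% of the long arm and 13.6% of the short arm in contact, with the highest short-arm share of the 32 cells, while its share over the genome, 33.9%, was 4th from the highest. In the long arm it had 34.4% of the longest region and 0% of the regions at 51500001 to 52800000, 73600001 to 74300000 and 79700001 to 80900000 in contact. Its short-arm contacts were spread, with 21 bins at 5800001 to 10200000 and 13 at 32000001 to 35300000. At an OE limit of 2 it had 1.14% of the long arm and 3.48% of the short arm in contact, and 2 of 32 cells then had the short arm above the long arm. Cell 28 was the 1 cell with that order with any read counted (29.8% of the long arm and 45.2% of the short arm), with thinned reads (8.41% and 13.9%) and without bins of low expected reads (9.21% and 14.9%).

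The 6 longest stretches in contact in no cell held 49.5% of all such bins of chromosome 16. Beside the chromosome ends they lay at 66200001 to 70200000 (4 Mb) on the long arm and at 10200001 to 12900000 (2.7 Mb), 22700001 to 25300000 (2.6 Mb) and 29400001 to 32000000 (2.6 Mb) on the short arm. The mean OE of the 6 stretches was 0.00953 to 0.0208 over all cells, against 2.05 in the longest contact region. The stretches and the region were picked by these same OE values, so the contrast is a description only. Over all never-contacted bins, those without a read in any cell included, the mean OE in the deeper cells was 0.0273 ± 0.0213 on chromosome 16 and 0.0365 ± 0.0202 elsewhere (SD over cells, n = 29).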

How the data were processed

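The deposited table of ratios gives, per the file headers, the observed over expected reads (OE) of each 100-kb bin in single cells. Build hg19, Bowtie2 2.1.0 and cutadapt are listed in the submitters' processing notes; how the authors made the expectation, and whether duplicates were removed, is not given in the sources used here. Columns were matched to cells by sample number, and 3 of 35 labelled cells were not analysed here. Whole reads were recovered from the steps between values of a bin (tolerance 0.01 reads), and both the recovery and the tests were tested on simulated data. Recovered reads describe depth; they are not independent molecules, and intervals cover counting error only.

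Contact was an OE of 1 or more. Sign-flip permutation tests over cells were two-sided with 100000 resamples, and bins were tested with an exact Poisson-binomial test (the smaller tail doubled) over the whole table, threshold 0.05 after Benjamini-Hochberg adjustment. Python 3.11.15 with numpy 2.4.6 was used. The chromosome, the lists of stretches and the tests were chosen with earlier results of these data known. Named stretches were those of 3 or more bins at 50% or more, the 6 longest at 0% and the bins of highest frequency; regions at 20% or more were formed later. Planned gene lists were not used, because the annotation at hand is of another build. Alternatives were other OE limits, leaving out shallow cells, thinning, other bins, widths and chromosomes.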

Additional observations from a re-analysis of the deposited data

How the results depend on the processing

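No paired analysis was possible because all cells belong to 1 group and no samples share a replicate number across groups; the differences between parts of the genome were all taken within cells. Of 168 recomputed values, 156 stayed within set limits. Tested differences had the same sign and call, counts were within 1.5 times, runs within 1 SD and correlations within the 95% interval of the reported value. These limits were wide. An arm correlation of 0.142 in the deeper cells, against 0.439, counted as within them. So did a longest run of 0.959 Mb at an OE limit of 2, against 2.15 Mb. A further 11 moved more and 1 reversed. Chromosome 16 stayed below the other bins (-19.9 to -12.0 points) and the long arm above the short arm (7.67 to 19.3 points) under every alternative run. Against single chromosomes the differences were 1.98 to 7.88 points (chromosome 17), -27.3 to -16.7 (chromosome 18), and at the smallest -2.38 (chromosome 20). The reversed value was the short-arm end with windows of 10 Mb (3.46 points). Stretches of 3 or more bins, 3 at 50%, numbered 5 with an OE limit of 0.5, 8 with any read counted, 0 at a frequency of 80% and 8 at 20%. Bins at 50% or more, 76, numbered 22 with an OE limit of 2 and 158 with any read, and bins past 80% and 20% numbered 3 and 126. The longest run, 2.15 Mb over 32 cells, was 4.20 Mb with any read, and the mean run, 364 kb, was 612 kb when joined across 1 bin. The correlation of the arms, 0.439, was 0.0749 in thinned deeper cells; the cause was not tested. The short-arm centromere flank stayed above the rest of its arm, by 3.41 points without bins of low expected reads and 19.2 points with windows of 2 Mb. Leaving out cell 28 and the other treatments of the cell's share in correlations were chosen after seeing the data. In bins of low expected reads 1 read gives a large OE, and a contact there rests on few reads.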

Other observations

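The highest OE of a deeper cell on chromosome 16 was 36.8, in cell 28 at 16300001 to 16400000, a bin with a read in that cell only and with expected reads 0.00318 times the median. The next highest, 31.2 in cell 34 at 32100001 to 32200000, was of the same kind, with a read in 1 cell and 0.00955 times the median expectation.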
